A study of Mus musculus with 21 samples.

Results

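Newly made RNA of 4 sarcomere genes, Ttn, Tnnt2, Actc1 and Mybpc3, was followed by SLAM-IT-seq in hearts of adult mice, next to the total level of the same transcripts. The genes were located by windows on the mm39 mouse genome and a strand for each, and every counted interval inside a window was taken, keeping the most read one where intervals overlapped. This gave 10 intervals out of 120310 in the whole table: 2 for Ttn, 5 for Tnnt2, 1 for Actc1 and 2 for Mybpc3.

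The 21 mice, 1 library each, formed 4 groups. There were 6 Lmna F/F mice with the Uprt transgene, 4 of them female and 2 male, and 8 Lmna +/+ mice with it, 4 of each sex. Without the transgene there were 4 Lmna F/F mice, 2 of each sex, and 3 Lmna +/+ mice, all male. In full, the genotypes were Lmna F/F or +/+ with Myh6MCM Tg/0, and Uprt Tg/0 or no Uprt allele listed. Myh6MCM is a Cre recombinase under the Myh6 promoter, active in cardiomyocytes once tamoxifen is given, and the control mice carried it too. All mice had tamoxifen on 4 days at 6 to 8 weeks of age, received 4-thiouracil 2 weeks after it, and were killed 6 hours later for RNA from the left ventricular free wall. The tissue is a bulk sample with all cell types of the wall, and fewer cells of a type and less RNA per cell cannot be told apart in it.

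The sarcomere is the contractile unit of heart muscle, built from thick filaments of myosin and thin filaments of actin. Ttn encodes titin, the giant spring that spans the sarcomere from Z disc to M line. Actc1 encodes cardiac actin of the thin filament, Tnnt2 encodes the troponin subunit that ties the calcium switch to tropomyosin, and Mybpc3 encodes a myosin-binding protein of the thick filament that tunes cross-bridge cycling. Lmna encodes the A-type lamins of the nuclear envelope, and variants in LMNA and in all 4 sarcomere genes are known causes of human cardiomyopathy. Uprt joins 4-thiouracil to a sugar phosphate so that it can enter new RNA. After alkylation with iodoacetamide the base is read as C, so reads with a T>C conversion serve as the measure of label. Such reads also occur without Uprt, as a background, so a T>C read is not by itself a labelled one.

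Each library held 25947355 to 50951634 reads on the intervals kept, of which 3.08% to 5.92% were T>C reads. With Uprt the share of T>C reads over all intervals averaged 5.07% ± 0.272 (SD, n = 6) in Lmna F/F hearts, against 4.92% ± 0.451 (SD, n = 8) in Lmna +/+ hearts. Without Uprt it averaged 3.61% ± 0.331 (SD, n = 4) in Lmna F/F hearts, against 3.57% ± 0.423 (SD, n = 3) in Lmna +/+ hearts. The 4 main intervals together took 1.58% to 2.304% of a library's reads. The supplied gene table matched 0 of 61546 transcript IDs. The level of Lmna, markers of cell types and other sarcomere genes were therefore not analysed here, and the genotype labels have no check from Lmna reads.

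For Ttn the 3′-most interval, chr2:76534324-76535374 on the minus strand, carried 97.1% of the gene's reads. The other Ttn interval, chr2:76744288-76744520, lies far upstream and is called the internal Ttn interval. For Tnnt2 the 3′-most interval, chr1:135779811-135779998 on the plus strand, carried 68.0% of the gene's reads, and the fourth interval, chr1:135777188-135777479, carried 31.5%. The first Tnnt2 interval, chr1:135764128-135767457, had 29391 reads over all libraries, the second, chr1:135768599-135768650, had 4920, and the third, chr1:135769639-135772490, had 1641. Actc1 had 1 interval, chr2:113877763-113877946 on the minus strand. Mybpc3 had its main interval at chr2:90966588-90966861 on the plus strand and a second one, chr2:90966460-90966486, with 84 reads in all. The main interval of each gene had at least 40703 reads in every library. Its T>C share was therefore known to within 0.479 percentage points or better (95% exact Clopper-Pearson interval, which covers counting error only).

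In hearts with Uprt, all 4 genes stood lower in Lmna F/F than in Lmna +/+ on average, with fitted changes of -11.6% to -23.8%, and none passed the test. Levels are CPM, counts scaled to a common library size with TMM factors, and differences are log2 fold changes of Lmna F/F over Lmna +/+ with their SE, from edgeR's quasi-likelihood test adjusted over all 31182 intervals tested. Of those, 761 were called at an adjusted p under 0.05, which is 2.44%, and 82 of them were lower, which is 0.263%. Of the 10 sarcomere intervals 0 were called. At an unadjusted p under 0.05 there were 4 of the 10 (Ttn, Mybpc3, Tnnt2 and the internal Ttn interval, all lower), against 4412 of all intervals, which is 14.1%. Their median log2 fold change was -0.21, against 0.01 for all intervals tested, and 8 of 10 were negative. With DESeq2 in place of edgeR Ttn passed (adjusted p = 0.0235), and in an edgeR fit of these 14 mice alone Ttn, Mybpc3, Tnnt2 and the internal Ttn interval passed (adjusted p = 0.00767, 0.0278, 0.0431 and 0.0465). With library size alone in place of TMM the median of all intervals was 0.16, and the log2 fold changes were -0.15 for Ttn, -0.24 for Mybpc3, -0.13 for Tnnt2 and -0.02 for Actc1.

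Ttn, the spring protein, came closest to the threshold. Its level in Lmna F/F with Uprt was 1361, 1433, 1405, 1446, 1379 and 1404 CPM in replicates 1 to 6. In Lmna +/+ with Uprt it had a lowest value of 1547, a median of 1732 and a highest of 1943 CPM. Every Lmna F/F library was below every Lmna +/+ library, a separation found in 0.385% of all intervals in that direction. The means were 1404 ± 31.9 CPM (SD, n = 6) in Lmna F/F and 1727 ± 125 CPM (SD, n = 8) in Lmna +/+. The log2 fold change was -0.31 ± 0.09 with an edgeR adjusted p of 0.0693 and a 95% interval of -0.49 to -0.12. The SD was 2.27% of the mean in Lmna F/F, against 7.22% in Lmna +/+.

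Mybpc3, the thick filament regulator, had 1566, 1731 and 1897 CPM (lowest, median and highest) in Lmna F/F with Uprt. In Lmna +/+ with Uprt the same values were 1701, 2425 and 2862 CPM. All 6 Lmna F/F libraries were below the Lmna +/+ median, and 2 were below its lowest library, so the groups overlapped. The means were 1726 ± 121 CPM (SD, n = 6) and 2314 ± 426 CPM (SD, n = 8), with a log2 fold change of -0.39 ± 0.12 and an edgeR adjusted p of 0.106.

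Tnnt2 at its 3′-most interval had 5191, 6008 and 6810 CPM (lowest, median and highest) in Lmna F/F with Uprt, and 6164, 7478 and 8292 CPM in Lmna +/+ with Uprt. Of the 6 Lmna F/F libraries, 4 were below the whole Lmna +/+ range. The log2 fold change was -0.28 ± 0.10 (edgeR adjusted p = 0.170), and at the fourth Tnnt2 interval it was -0.22 ± 0.11 (adjusted p = 0.370). Actc1 had 7532, 9651 and 10573 CPM (lowest, median and highest) in Lmna F/F and 9336, 10580 and 13249 CPM in Lmna +/+, and the groups overlapped widely. Its log2 fold change was -0.18 ± 0.11 (edgeR adjusted p = 0.498), with a 95% interval of -0.40 to 0.04. The internal Ttn interval, singled out after its values were seen, had a log2 fold change of -0.41 ± 0.15 (adjusted p = 0.161).

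**Figure D1:**
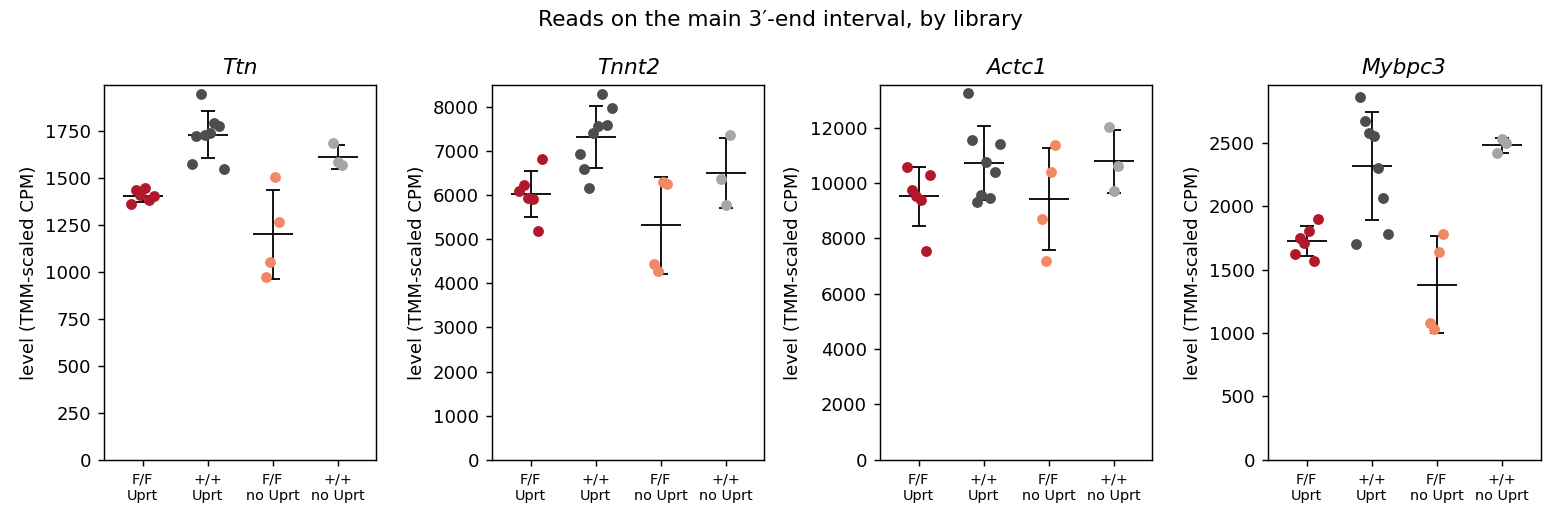
Level of the main interval of each gene in CPM scaled with TMM factors (vertical axes, from 0) by group (horizontal axes). Points are libraries, the long line is the group mean and the bars are ± 1 SD (n = 6, 8, 4 and 3). The Ttn points of Lmna F/F with Uprt, at 1361 to 1446 CPM, all lie below those of Lmna +/+ with Uprt, and the lowest points of Ttn and Mybpc3 are replicates 1 and 2 of Lmna F/F without Uprt.

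In hearts without Uprt, Mybpc3 and Ttn fell in Lmna F/F. The test called 1615 of 31182 intervals, which is 5.18%, and 536 lower, which is 1.72%. Of the 10 sarcomere intervals 2 were called, both lower, all 10 had a negative log2 fold change, and their median was -0.46 against 0.03 for all intervals. The 10 intervals come from the same mice and, here and with Uprt, are not separate results. Of them 5 lie in Tnnt2, and the second Mybpc3 interval had 84 reads in all. The ranges of the libraries did not overlap for 4 of the 10, a separation found in 6.88% of all intervals in the lower direction.

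Mybpc3 had 1076, 1031, 1640 and 1778 CPM in replicates 1 to 4 of Lmna F/F without Uprt, against 2416, 2530 and 2497 CPM in Lmna +/+ without Uprt. Its level fell by 41.9%, a log2 fold change of -0.78 ± 0.18 (edgeR adjusted p = 0.0107), and was lower in 4 of 4 libraries. Ttn had 970, 1052, 1502 and 1265 CPM in Lmna F/F without Uprt, against 1683, 1581 and 1564 CPM in Lmna +/+ without Uprt. Its level fell by 26.9%, a log2 fold change of -0.45 ± 0.13 (edgeR adjusted p = 0.0415), and was lower in 4 of 4 libraries. In both genes replicates 1 and 2 were the lowest of all 21 libraries.

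These calls rest on few mice. Without replicates 1 and 2 of Lmna F/F, left out together after the data were seen, the log2 fold change was -0.48 for Mybpc3 (edgeR adjusted p = 0.328) and -0.24 for Ttn (adjusted p = 0.637). Those replicates were picked as the lowest for both genes, so leaving them out had to shrink the change. Mybpc3 also lost its call without replicate 1 alone (-0.64, adjusted p = 0.0784), and Ttn lost its call without any of 10 single libraries, with log2 fold changes of -0.47 to -0.35 there. In a fit of these 7 mice alone neither was called (adjusted p = 0.218 for Mybpc3 and 0.323 for Ttn), and with library size alone in place of TMM Ttn stood at -0.32 (adjusted p = 0.145).

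Tnnt2 and Actc1, both thin filament genes, were not called without Uprt. Tnnt2 had 4440, 4280, 6293 and 6242 CPM in Lmna F/F, against 6362, 5777 and 7365 CPM in Lmna +/+, a log2 fold change of -0.30 ± 0.15 (edgeR adjusted p = 0.310). The fourth Tnnt2 interval stood at -0.33 ± 0.16 (adjusted p = 0.268). Actc1 had 8695, 7200, 10411 and 11366 CPM in Lmna F/F, against 12016, 9730 and 10610 CPM in Lmna +/+, a log2 fold change of -0.21 ± 0.16 (edgeR adjusted p = 0.550). In both genes replicates 1 and 2 were again the 2 lowest of the Lmna F/F libraries, and replicates 3 and 4 lay within or near the Lmna +/+ range. The internal Ttn interval stood at -0.59 ± 0.21 (adjusted p = 0.116), with 22.6 to 45.0 CPM in Lmna F/F and 48.6 to 56.1 CPM in Lmna +/+.

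The difference of the Lmna effect between mice with and without Uprt was tested itself. It was called at 0 of 31182 intervals by edgeR, with 2198 at an unadjusted p under 0.05, 1 sarcomere interval (the first of Tnnt2) among them, and 8 called by DESeq2. Mybpc3 showed the largest such difference among the main intervals, 0.39 ± 0.22 on the log2 scale (edgeR adjusted p = 0.744). The call of Mybpc3 and Ttn without Uprt is thus not shown to differ from their values with Uprt.

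The Uprt transgene itself was set against its absence in all reads. In Lmna F/F, 11 of 31182 intervals were called, which is 0.0353%, and in Lmna +/+ 0 were called by edgeR, with 2235 at an unadjusted p under 0.05 and 51 called by DESeq2. None of the 10 sarcomere intervals was called in either genotype. At an unadjusted p under 0.05 there were 5 of 10 in Lmna F/F, against 11.2% of all intervals, and 1 of 10 in Lmna +/+, against 7.17%. In Lmna F/F 0 of 10 were negative, with a median log2 fold change of 0.30 against 0.005 for all intervals. In Lmna +/+ 3 of 10 were negative, with a median of 0.12 against 0.02. The fourth Tnnt2 interval stood at 0.43 ± 0.13 in Lmna F/F (edgeR adjusted p = 0.241) and the third at 1.12 ± 0.35 (adjusted p = 0.259). The Lmna F/F mice without Uprt also enter the Lmna calls without Uprt. In Lmna F/F, Mybpc3 averaged 1726 ± 121 CPM (SD, n = 6) with Uprt, against 1381 ± 383 CPM (SD, n = 4) without it, a log2 fold change of 0.35 ± 0.15 (edgeR adjusted p = 0.396). In Lmna +/+ it averaged 2314 ± 426 CPM (SD, n = 8) with Uprt, against 2481 ± 58.9 CPM (SD, n = 3) without it.

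Across the 4 groups, mean Ttn levels ran in the order Lmna F/F without Uprt (1197 CPM), Lmna F/F with Uprt (1404 CPM), Lmna +/+ without Uprt (1609 CPM) and Lmna +/+ with Uprt (1727 CPM). For Mybpc3 the order was Lmna F/F without Uprt (1381 CPM), Lmna F/F with Uprt (1726 CPM), Lmna +/+ with Uprt (2314 CPM) and Lmna +/+ without Uprt (2481 CPM). For Tnnt2 it was Lmna F/F without Uprt (5314 CPM), Lmna F/F with Uprt (6024 CPM), Lmna +/+ without Uprt (6501 CPM) and Lmna +/+ with Uprt (7313 CPM). For Actc1 it was 9418 CPM, 9519 CPM, 10717 CPM with Uprt and 10785 CPM without, Lmna F/F without Uprt again being first and Lmna F/F with Uprt next. The 2 groups of each genotype overlapped for all 4 genes.

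**Figure D2:**
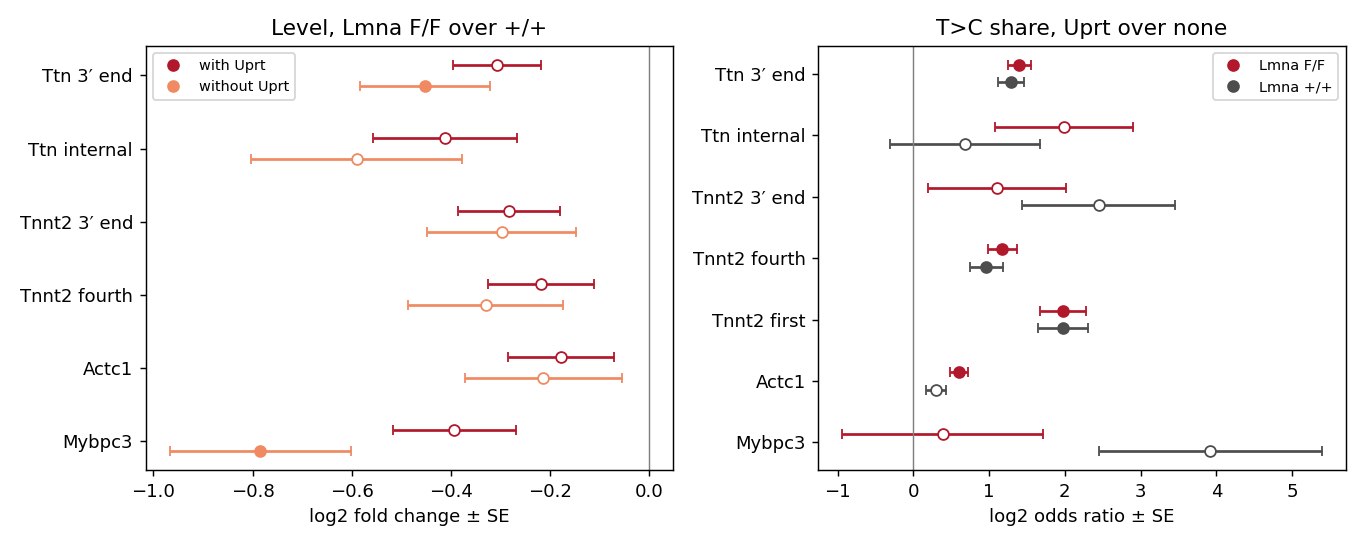
The left panel shows log2 fold changes in level, Lmna F/F over Lmna +/+, with and without Uprt, and the right panel log2 odds ratios of the T>C share with over without Uprt, in both genotypes, for the sarcomere intervals named (bars are ± 1 SE). Filled points passed an edgeR adjusted p of 0.05 and open points did not: on the left only Mybpc3 (-0.78) and Ttn (-0.45) without Uprt are filled, and on the right Ttn and the first and the fourth Tnnt2 intervals in both genotypes and Actc1 in Lmna F/F (0.60).

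Labelling was read as the share of an interval's reads that carried a T>C conversion, and differences are log2 odds ratios from edgeR on T>C and other reads, with an effect for each library. Mice without Uprt give the background. The share of Ttn and of the first and the fourth Tnnt2 intervals rose with Uprt in both genotypes, and that of Actc1 rose in Lmna F/F. Of 13524 intervals tested, 5675 rose with Uprt in Lmna F/F, which is 42%, and 4529 rose in Lmna +/+, which is 33.5%. Among the 8 sarcomere intervals tested, 4 rose in Lmna F/F and 4 rose in Lmna +/+. The second Tnnt2 interval and the second Mybpc3 interval had too few T>C reads to be tested.

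Ttn had a T>C share of 3.71%, 3.56%, 4.07%, 3.79%, 5.20% and 3.49% in replicates 1 to 6 of Lmna F/F with Uprt, against 1.33%, 1.87%, 1.32% and 1.60% in Lmna F/F without Uprt. In Lmna +/+ it had a lowest value of 2.84%, a median of 3.55% and a highest of 4.47% with Uprt, against 1.11%, 1.65% and 1.59% without. With Uprt every library was above every library without it, in both genotypes. Such a separation was found in 30.6% of intervals in Lmna F/F and in 25.2% in Lmna +/+. The log2 odds ratio was 1.40 ± 0.16 in Lmna F/F (edgeR adjusted p = 1.14e-06) and 1.29 ± 0.17 in Lmna +/+ (adjusted p = 2.19e-05). These stand at the 58.4th and 55.4th percentile of all intervals tested, whose medians were 1.17 and 1.15.

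Actc1, the thin filament actin, had a T>C share of 4.68%, 5.69%, 5.17%, 6.34%, 6.52% and 5.40% in Lmna F/F with Uprt, against 3.59%, 3.46%, 3.89% and 3.73% without. In Lmna +/+ it had a lowest value of 3.87%, a median of 4.71% and a highest of 6.68% with Uprt, against 3.37%, 3.96% and 3.80% without. The groups did not overlap in Lmna F/F, while in Lmna +/+ the lowest library with Uprt lay under the highest without. The log2 odds ratio was 0.60 ± 0.12 in Lmna F/F (edgeR adjusted p = 0.000325), and in Lmna +/+ it was 0.30 ± 0.13 (adjusted p = 0.0784). The difference between these values, tested itself, was 0.31 ± 0.17 (adjusted p = 0.928). The Actc1 odds ratios stand at the 29.5th and 19.8th percentile of all intervals, and its share without Uprt, 3.67% ± 0.186 in Lmna F/F (SD, n = 4) and 3.71% ± 0.304 in Lmna +/+ (SD, n = 3), was above the 1.53% ± 0.263 and 1.45% ± 0.294 of Ttn. A read covered 30.9 T positions at Actc1 and 24.3 at Ttn. As conversions over T bases, Actc1 without Uprt still stood higher, at 0.120% in Lmna F/F and 0.121% in Lmna +/+. Ttn stood at 0.0639% and 0.0613%. The cause of this higher background was not tested.

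At 2 of the upstream Tnnt2 intervals, the first and the fourth, the T>C share rose with Uprt in both genotypes. At the first, the T>C share was 10.2%, 16.5% and 18.0% (lowest, median and highest) in Lmna F/F with Uprt, against 5.08%, 3.59%, 4.74% and 4.40% without. In Lmna +/+ it was 9.49%, 14.7% and 20.03% with Uprt, against 2.66%, 4.00% and 7.18% without. No library with Uprt fell into the range without it, and the log2 odds ratio was 1.98 ± 0.30 in Lmna F/F (edgeR adjusted p = 2.86e-05) and 1.98 ± 0.33 in Lmna +/+ (adjusted p = 0.000181). Measured as conversions over T bases, it was 3.36 in Lmna F/F and 3.88 in Lmna +/+, both called. With Uprt a T>C read carried on average 0.759 conversions within this interval in Lmna F/F and 0.710 in Lmna +/+. Without Uprt it carried 0.272 and 0.182, so most T>C reads there had no conversion counted in the interval. At the fourth interval, which held 31.5% of Tnnt2 reads, the share was far lower, at 0.628% ± 0.153 (SD, n = 6) in Lmna F/F mice with the transgene, against 0.273% ± 0.0551 (SD, n = 4) in those lacking it. In Lmna +/+ the transgenic mice averaged 0.488% ± 0.127 (SD, n = 8), against 0.236% ± 0.0260 (SD, n = 3) in the others. Its log2 odds ratios were 1.18 ± 0.19 in Lmna F/F (edgeR adjusted p = 6.69e-05) and 0.96 ± 0.21 in Lmna +/+ (adjusted p = 0.00182).

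The fourth interval gives few bases to read: its reads covered 1.15 T positions each within the interval, against 21.1 at the 3′-most Tnnt2 interval. A T>C read carried 0.117 conversions within the fourth interval. Most T>C reads of this interval thus had no conversion counted in it, and its share is largely not measured on its own bases. As conversions over T bases, its log2 odds ratio was 1.64 in Lmna F/F (adjusted p = 0.00126) and was called, and in Lmna +/+ it was 0.37 (adjusted p = 0.508) and was not. At the third interval, with 1641 reads in all, 83 of 581 reads were T>C in Lmna F/F with Uprt and 6 of 203 without. In Lmna +/+ they were 109 of 630 with Uprt and 0 of 227 without, which allows a share of up to 1.32%. It was called in Lmna +/+ (edgeR adjusted p = 0.00382) and not in Lmna F/F (adjusted p = 0.0874), and the fitted odds ratio against a group with 0 T>C reads is no bound and is not given.

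**Figure D3:**
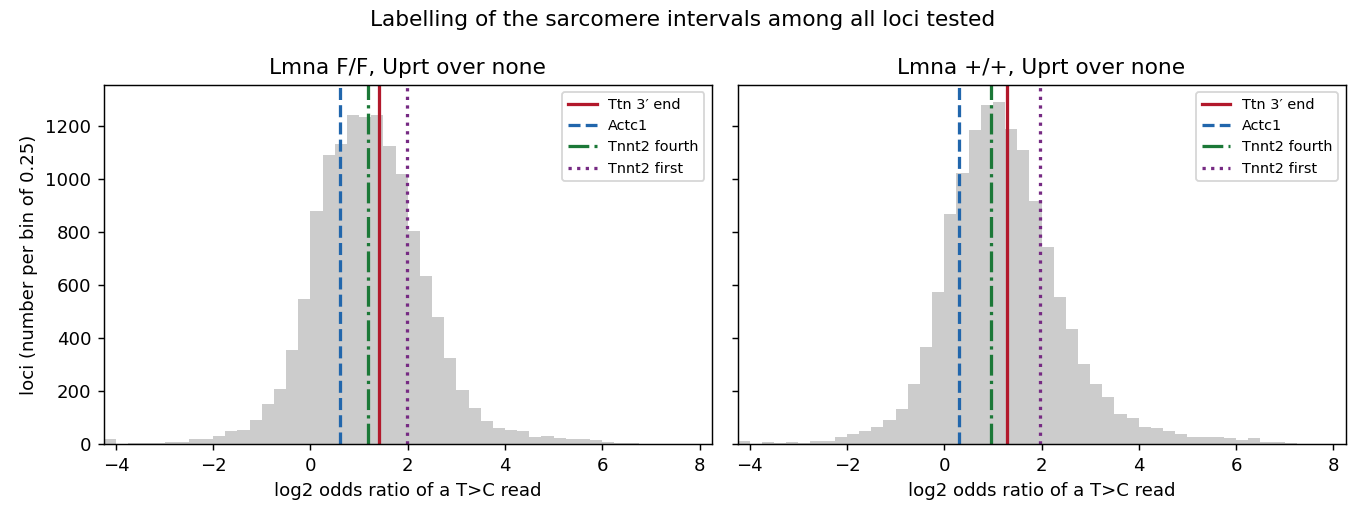
Effect of Uprt on the T>C share as a log2 odds ratio (horizontal axes, with over without the transgene), for all 13524 intervals tested (grey bars, number per bin of 0.25), in Lmna F/F and in Lmna +/+. Vertical lines mark Ttn, Actc1 and the first and the fourth Tnnt2 intervals. Actc1 (0.60 and 0.30) lies left of the medians of 1.17 and 1.15 and the first Tnnt2 interval (1.98 in both) to their right, with Ttn (1.40 and 1.29) and the fourth Tnnt2 interval (1.18 and 0.96) between, all among the tall bars.

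At 3 sarcomere intervals the T>C share had 2 separate levels among mice, and both levels occurred with and without Uprt. At Mybpc3 it was 1.62% in replicate 1 of Lmna F/F with Uprt and 42.9% to 43.5% in the other 5. In Lmna +/+ with Uprt it was 1.93% and 1.16% in replicates 1 and 2 and 41.2% to 43.6% in the other 6. In Lmna F/F without Uprt it was 1.08% in replicate 3 and 41.0% to 43.0% in the other 3. In Lmna +/+ without Uprt it was 0.860% and 0.863% in replicates 1 and 3 and 43.2% in replicate 2. In all, 6 libraries were below 2% and 15 were above 41%, with a gap of 39.1 points between.

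At the 3′-most Tnnt2 interval, 4 libraries of Lmna F/F with Uprt lay at 1.28% to 2.13%, and replicates 1 and 6 at 12.7% and 13.0%. In Lmna +/+ with Uprt 4 lay at 1.11% to 1.86%, and replicates 1, 2, 6 and 7 at 12.0% to 13.0%. Without Uprt, replicate 3 of Lmna F/F was at 13.3%, the other 3 at 0.763% to 0.850%, and Lmna +/+ at 0.670% to 0.808%. At the internal Ttn interval, 2 libraries of Lmna F/F with Uprt lay at 8.12% and 8.47% and 4 at 29.9% to 35.7%. In Lmna +/+ with Uprt 4 lay at 4.39% to 6.13% and 4 at 29.1% to 40.9%. Without Uprt, replicate 4 of Lmna F/F was at 32.6% and the other 3 at 2.33% to 4.44%, and replicate 2 of Lmna +/+ was at 33.5% and the others at 3.32% and 4.05%.

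The high libraries were not the same mice at the 3 intervals. Mybpc3 and Tnnt2 were both high in 3 libraries, Mybpc3 alone in 12, Tnnt2 alone in 4 and neither in 2. Mybpc3 and the internal Ttn interval were both high in 8, and Tnnt2 and the internal Ttn interval in 4. A T>C read at Mybpc3 carried 1.01 conversions on average over all libraries, and at the 3′-most Tnnt2 interval also 1.01. At the internal Ttn interval the value was 1.06, and at Actc1 and Ttn, without such levels, 1.04 and 1.07. At Mybpc3 low libraries had 1.004 to 1.043 and high ones 1.005 to 1.019, so the value does not set the levels apart. Among 9182 intervals with at least 100 reads in every library, 242 had a gap of 10 points or more between neighbouring libraries, which is 2.64%. Mybpc3 (39.1 points) and the internal Ttn interval (20.6 points) are among them, and the 3′-most Tnnt2 interval, with a gap of 9.86 points, is just outside. The cause of the levels was not tested.

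With Uprt against none, none of these 3 intervals was called. The log2 odds ratio at Mybpc3 was 0.39 ± 1.33 in Lmna F/F (edgeR adjusted p = 0.866) and 3.92 ± 1.47 in Lmna +/+ (adjusted p = 0.146). At the 3′-most Tnnt2 interval it was 1.10 ± 0.91 in Lmna F/F (adjusted p = 0.422) and 2.45 ± 1.01 in Lmna +/+ (adjusted p = 0.0844). Except at Tnnt2 in Lmna +/+ without Uprt, libraries of each group stood at both levels, and the SE of these values is wide. The 3.92 at Mybpc3 compares 6 high and 2 low libraries with Uprt with 1 high and 2 low without. Among low libraries only, Mybpc3 was at 1.16% to 1.93% with Uprt and 0.860% to 1.08% without. Tnnt2 was at 1.11% to 2.13% and 0.670% to 0.850%. The internal Ttn interval overlapped, at 4.39% to 8.47% and 2.33% to 4.44%. These ranges were not tested, and the lack of a call does not show absence of label.

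**Figure D4:**
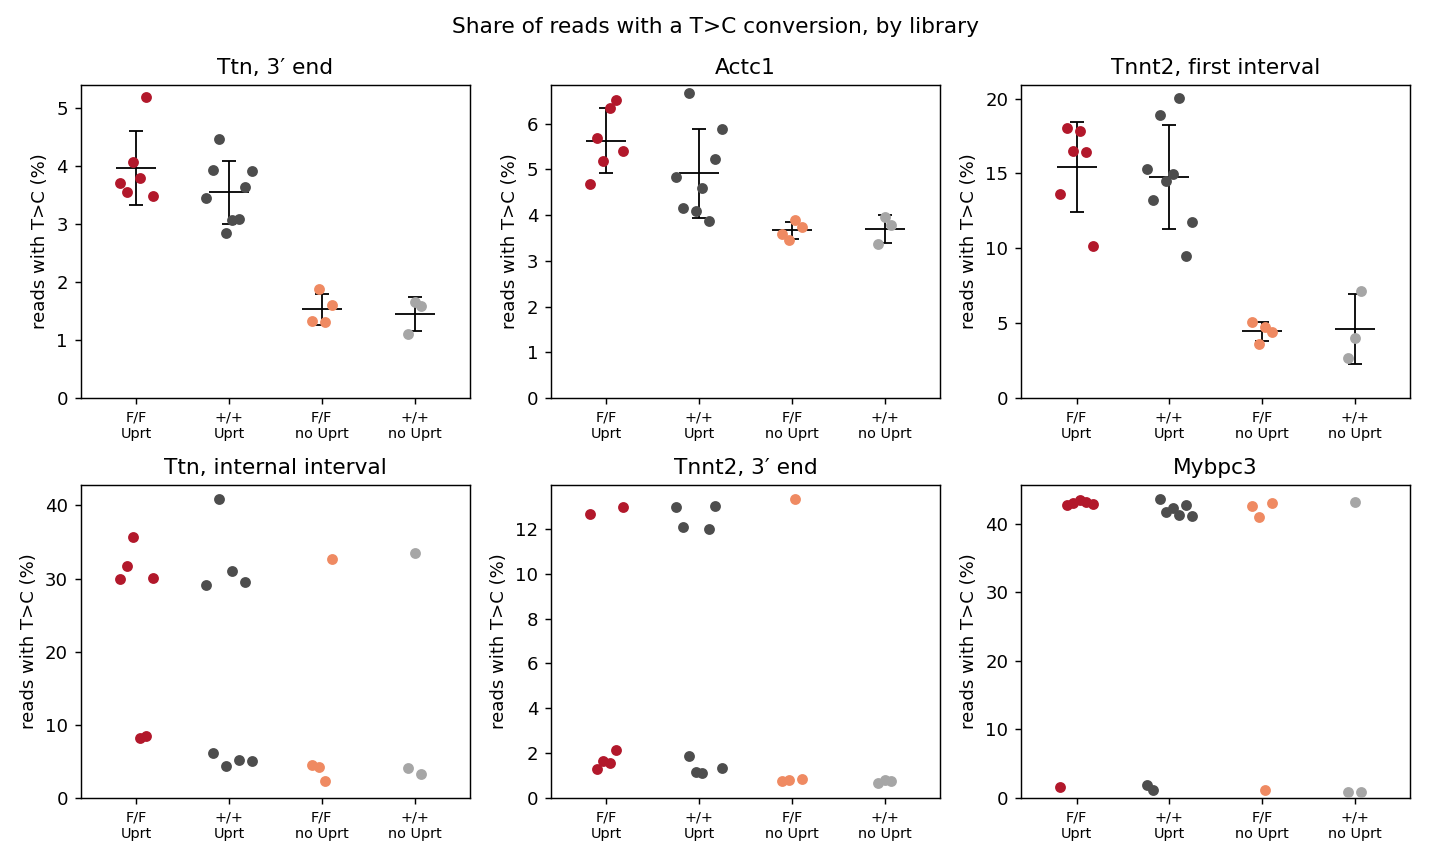
T>C share in percent (vertical axes, from 0) by group (horizontal axes), for the main interval of each gene, the first Tnnt2 interval and the internal Ttn interval. Points are libraries, and in the upper row the long line is the group mean and the bars are ± 1 SD (n = 6, 8, 4 and 3). Mybpc3, the 3′-most Tnnt2 interval and the internal Ttn interval have 2 levels of points in groups of either genotype, while Ttn and Actc1 vary around 1 level per group.

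Between Lmna genotypes the T>C share of the sarcomere intervals was not called different. With Uprt, 1 of 13524 intervals was called by edgeR, which is 0.00739%, and 3 of them by the quasi-binomial model. Of the 8 sarcomere intervals 0 were called by either. In edgeR 372 of all intervals were at an unadjusted p under 0.05, 1 of the 8 (the fourth Tnnt2 interval) among them. Ttn averaged 3.97% ± 0.636 in Lmna F/F (SD, n = 6) and 3.55% ± 0.545 in Lmna +/+ (SD, n = 8), a log2 odds ratio of 0.15 ± 0.13. Actc1 averaged 5.63% ± 0.702 in Lmna F/F (SD, n = 6) and 4.92% ± 0.972 in Lmna +/+ (SD, n = 8), a log2 odds ratio of 0.18 ± 0.10. Both had an edgeR adjusted p of 1.00. At Mybpc3 and the 3′-most Tnnt2 interval the log2 odds ratios were 0.39 ± 1.11 and -0.49 ± 0.76, neither called.

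Without Uprt, 1 of 13524 intervals was called, which is 0.00739%, with 892 at an unadjusted p under 0.05, and of the 8 sarcomere intervals 0 were called and 0 were at an unadjusted p under 0.05. Ttn stood at 0.05 ± 0.19 and Actc1 at -0.12 ± 0.14 (edgeR adjusted p = 0.990 and 0.961). The difference of the Lmna effect on the share between mice with and without Uprt was called at 0 of 13524 intervals by edgeR and 0 by the quasi-binomial model, with 747 at an unadjusted p under 0.05, 1 of the 8 sarcomere intervals (the third of Tnnt2) among them. For Ttn it was 0.11 ± 0.23 (adjusted p = 0.992).

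T>C reads were also tested as a level in the 14 mice with Uprt. Of 10378 intervals, 50 were called, which is 0.482%, and of the 8 sarcomere intervals 0, with 705 of all intervals and 0 of the 8 at an unadjusted p under 0.05 and 95 called by DESeq2. T>C reads of Ttn averaged 55.7 ± 8.40 CPM in Lmna F/F (SD, n = 6) and 61.5 ± 11.9 CPM in Lmna +/+ (SD, n = 8), a log2 fold change of -0.13 ± 0.12 (edgeR adjusted p = 0.908). Those of Actc1 averaged 531 ± 44.1 CPM in Lmna F/F and 526.2 ± 114 CPM in Lmna +/+, a log2 fold change of -0.0047 ± 0.12 (adjusted p = 0.995). These means are scaled with the TMM factors of all reads, but the fold changes with totals and TMM factors of the T>C reads. A change in T>C reads common to all intervals is thus scaled away. With the factors of all reads the log2 fold changes were -0.14 for Ttn and -0.02 for Actc1, neither called. The T>C reads of Ttn overlapped between the Lmna groups, as did those of the other sarcomere intervals. Without Uprt, T>C reads of Ttn averaged 18.2 CPM in Lmna F/F and 23.2 CPM in Lmna +/+. Those of Actc1 averaged 348 and 397 CPM there, so most of its T>C reads with Uprt were at the level of the background. This background was not subtracted, and the changes above include it.

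Among the 14 mice with Uprt, the levels of the 4 genes were set against each other after the group mean was removed, in 6 pairs. Ttn and Mybpc3 had the largest r, a Pearson r of 0.713 (permutation p = 0.00408, adjusted over the 6 pairs 0.0245) and 0.584 without the 2 libraries farthest in Ttn. Their Spearman rho was 0.451 (permutation p = 0.109, adjusted 0.328) and did not pass. Within Lmna F/F the Pearson r was 0.668 (n = 6) and within Lmna +/+ it was 0.717 (n = 8). Ttn and Actc1 ran opposite, with r = -0.573 (permutation p = 0.0335, adjusted 0.100) and rho = -0.631 (permutation p = 0.0184, adjusted 0.110), which did not pass. The r was 0.08 within Lmna F/F and -0.793 within Lmna +/+, and -0.538 without the 2 farthest libraries. The other 4 pairs had adjusted p-values of 0.465 to 0.568 for r. Their r was 0.242 to 0.877 within Lmna F/F (n = 6) and -0.577 to -0.0948 within Lmna +/+ (n = 8), not tested within groups. Within Lmna F/F, Tnnt2 with Actc1 (0.877) and with Mybpc3 (0.810) stood above Ttn with Mybpc3. Only the group mean was removed, not an effect of sex.

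Over all 21 libraries and 6512 intervals with a mean of at least 10 CPM, the intervals outside the 4 windows whose level was most like each gene were found by Pearson r of log2 CPM. The r is given as a description, and libraries share the scaling. For Ttn they were chr14:34283218-34283741 on the minus strand (r = 0.960) and chr11:69833369-69834194 on the minus strand (r = 0.943). For Mybpc3 they were chr17:71433071-71433851 (r = 0.954) and chr3:32631291-32633388 (r = 0.947), both on the plus strand. For Tnnt2 they were chr6:142435975-142436313 on the minus strand (r = 0.936) and chrX:150976862-150977597 on the plus strand (r = 0.926). For Actc1 they were chr8:85700715-85701463 on the plus strand (r = 0.893) and chr19:7192560-7192849 on the minus strand (r = 0.881). The table pairs none of these with a gene name.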

How the data were processed

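RNA of the left ventricular free wall was alkylated (1.5 µg, 12 mM iodoacetamide) and sequenced as single-end 100-base QuantSeq 3′ reads that keep strand, per the labels' protocols. The deposited table has 208307 intervals in 21 libraries in the layout of SlamDunk, per the file headers, and the submitters' processing notes name mm39 as build. Per the file headers, the deposited columns used hold counts of reads, T>C reads, multimapped reads, covered T bases and conversions at each interval. The deposited CPM column (a score here, per the file headers) and the conversion rate fraction per the file headers were not used. For aligner settings, a filter on sequence variants, and how many conversions make a T>C read, the value is not given in the sources used here. No columns of other samples were present (0).

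Overlapping intervals of a strand were reduced to the most read one, which left 120310. Genes were assigned by mm39 windows, since the supplied table (GRCm38.p6) matched none of the transcript IDs. The list of other sarcomere genes, Lmna and the cell type markers were for this reason not looked up, and no genome of this build was used. The reads lie at 3′ ends, on which the promoter sequences supplied do not bear, so no sequence is printed. The genes and lists were chosen with earlier results of these data known. Named are the main interval of each gene, intervals with at least 10% of a gene's reads or called, the internal Ttn interval, and for likeness the 2 intervals with the highest Pearson r of log2 CPM (0.5 added).

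Levels were tested with the quasi-likelihood functions of edgeR 4.0.16 (R 4.3.3; TMM scaling; intervals kept by filterByExpr at a minimum count of 10) in 1 fit of 21 libraries with group and sex. T>C shares were tested in edgeR on T>C and other reads, with library, read type by group and read type by sex. T>C reads were tested in the 14 mice with Uprt, scaled with totals and TMM factors of the T>C reads themselves. Adjusted p-values are Benjamini-Hochberg over all intervals tested, threshold 0.05. Correlations used 100000 two-sided permutations. Replicates are separate mice, numbered in accession order, and all libraries have the same pool label. Any 2 libraries had unequal counts at 98.1% or more of the intervals above a minimum of reads summed over all libraries. In simulated counts for the Lmna level comparison with Uprt, 200 of 29885 intervals were given a log2 change of 1 and the test found 77.5% of them; without Uprt it found 41% of 200 among 29907. For the share between Lmna genotypes with Uprt 92% were recovered (11864 intervals), for T>C reads 44.5% (9963 intervals), and for the share with Uprt against none 80% in Lmna F/F (11682 intervals) and 63% in Lmna +/+ (11862 intervals). Simulated shares had the same fixed spread at every interval, not estimated from these data, so their recovery does not carry over to intervals with 2 levels. Changed intervals were drawn above a minimum of reads. The change of 1 was larger than the share differences between Lmna genotypes at Ttn and Actc1. It was also larger in size than the level differences between Lmna genotypes at the 4 main intervals. Those were -0.18 to -0.39 with Uprt and -0.21 to -0.78 without. Recovery at such smaller sizes was not tested. Alternatives were DESeq2 1.42.0, other scalings, no low-count filter, no sex term, males only, fewer groups, summed intervals, quasi-binomial fits moderated by limma 3.58.1, conversions over T bases, and each library left out. The omission of 2 libraries together and the reduction of intervals 1 by 1 were added after seeing the data.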

Additional observations from a re-analysis of the deposited data

Results flagged for a closer look

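Of 42 sets of values (1 interval, 1 measure, 1 group of 4 to 8 mice), 6 held a library far from the others by Dixon's test, which chance gives in about 1 of 20 sets. In Lmna F/F with Uprt, replicate 5 had a Ttn T>C share of 5.20%, against 3.49% to 4.07% in the others, and a level of 2071 CPM at the fourth Tnnt2 interval, against 2891 to 3381 CPM. The other 4 are libraries alone at one of the 2 levels of the T>C share. Mybpc3 was at 1.62% in replicate 1 of Lmna F/F with Uprt, against 42.9% to 43.5%, and at 1.08% in replicate 3 of Lmna F/F without Uprt, against 41.0% to 43.0%. The 3′-most Tnnt2 interval was at 13.3% in that same replicate 3, against 0.763% to 0.850%. The internal Ttn interval was at 32.6% in replicate 4 of Lmna F/F without Uprt, against 2.33% to 4.44%.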

How the results depend on the processing

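No paired analysis was possible because replicate numbers were given in accession order and pair no mice. Depth does not limit the shares of the main intervals, but the third Tnnt2 interval, with 18 to 154 reads a library, allows only large differences to be seen. Males alone leave 2 mice in each Lmna F/F group. The calls of Ttn and of the first Tnnt2 interval for Uprt against none kept direction and threshold in every alternative that tested them; the summed intervals of a gene give no value for single Tnnt2 intervals, and the calls of that setting were 2 in Lmna F/F (Ttn and Actc1) and 1 in Lmna +/+ (Ttn), against 4 and 4. The cause of the changes below was not tested.

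Sarcomere intervals called lower in Lmna F/F with Uprt were 0 as reported, 1 with DESeq2 (Ttn, -0.32), 1 with no low-count filter (Mybpc3, -0.39) and 4 in a fit of the groups compared alone (Ttn -0.31, Tnnt2 -0.30, Mybpc3 -0.40, and the internal Ttn interval). Leaving out 1 library gave 0 to 1, with Ttn at -0.34 to -0.29. Without Uprt the 2 calls were 1 with library size alone, 1 in males, 4 with no low-count filter, and 0 in a fit of the groups compared alone or without replicates 1 and 2 of Lmna F/F. Ttn then stood at -0.32 (library size), -0.54 (males), -0.54 (groups compared) and -0.24 (without both), and Mybpc3 at -0.81 (groups compared) and -0.48 (without both). Leaving out 1 library gave 0 to 4 calls, Ttn at -0.55 to -0.35 and Mybpc3 at -0.95 to -0.64. It gave 0 calls without replicate 1 of Lmna F/F, 3 without its replicate 3 and 4 without its replicate 4. Over all intervals, the 761 calls with Uprt were 1238 with DESeq2, 1304 with library size alone, 1588 with no low-count filter, 211 in males, 1164 in the groups compared alone, and 505 to 918 with 1 library left out. The 1615 without Uprt were 978 in males, 32 in the groups compared alone, 121 without both replicates, and 458 to 2354 with 1 library left out, 458 without replicate 1 of Lmna F/F.

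With no low-count filter the level difference between mice with and without Uprt was called at 1 sarcomere interval (the first Tnnt2 interval), and Uprt against none in Lmna F/F at 2 (the third and the fourth). The same setting called 7 intervals for the share with Uprt in Lmna F/F and 8 in Lmna +/+. It called 2 each for the share between Lmna genotypes with Uprt, without Uprt and for their difference, and 2 for T>C reads. The intervals with 2 levels are among them: for Uprt against none, Tnnt2 at 1.10 and Mybpc3 at 0.39 in Lmna F/F, and Tnnt2 at 2.45, Mybpc3 at 3.93 and also Actc1 at 0.30 in Lmna +/+. Between Lmna genotypes with Uprt, Tnnt2 was called at -0.49. With no sex term Tnnt2 (2.57) and Actc1 (0.41) were called for Uprt in Lmna +/+. In males Mybpc3 reversed to -2.73 for Uprt in Lmna F/F, and between Lmna genotypes with Uprt Mybpc3 reversed to -1.74 and Tnnt2 to 0.51, none of them called. Leaving out 1 library moved Mybpc3 over -0.84 to 1.27 for Uprt in Lmna F/F, 2.17 to 5.41 in Lmna +/+ and -0.19 to 1.16 between Lmna genotypes, and Tnnt2 over 0.46 to 2.08, 1.96 to 2.94 and -1.08 to -0.14 in the same 3 comparisons, and Actc1 over 0.23 to 0.35 for Uprt in Lmna +/+. In that comparison Tnnt2 was called without replicate 4 or 5 of Lmna +/+ with Uprt or replicate 3 of Lmna F/F without Uprt, Mybpc3 without replicate 2 of Lmna +/+ without Uprt, and Actc1 without replicate 6 of Lmna +/+ with Uprt. In the quasi-binomial model Mybpc3 was 1.41 for Uprt in Lmna +/+ and Tnnt2 0.23 in Lmna F/F, and in males Tnnt2 was 2.79 there, none called. Values near 0 changed sign without a call. The Ttn share without Uprt was -0.0060 with summed intervals and -0.13 to 0.15 with 1 library left out, and the difference of its Lmna effect was -0.00058 to 0.29. T>C reads of Actc1 were 0.0896 with library size alone, 0.0420 with no sex term and -0.0480 to 0.0504 with 1 library left out.

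Over all intervals, T>C reads had 95 calls with DESeq2 and 170 with no low-count filter, against 50. The share with Uprt in Lmna F/F had 2009 calls in males against 5695. In Lmna +/+ it had 2486 in males and 2703 without replicate 1 of Lmna +/+ without Uprt, against 4538. The single calls of the share between Lmna genotypes were 25 and 67 with no low-count filter. The 11 level calls of Uprt in Lmna F/F were 117 with DESeq2 and 598 with no low-count filter.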
